A study of Mus musculus with 4 samples.

Results

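The hepatic iron handling genes described here are 10 genes, each matched by its exact name on the array: Hamp, Hamp2, Trf, Tfrc, Tfr2, Hfe, Hfe2, Slc40a1, Fth1 and Bmp6. They were represented by 13 of the array's 39429 probes, and by 10 of its 30199 names. Hfe2 is the array's older name for Hjv, haemojuvelin.

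RNA labelled AAV_Cre was compared with RNA labelled AAV_Null on 4 Agilent 2-colour arrays of 1 slide, with 1 RNA of each group per array and 8 RNAs in all. Both groups were whole livers of female C57B/6 mice aged 8 to 10 weeks and homozygous for a floxed allele of Trib1, taken 1 week after virus and after a fast of 4 hours. The AAV_Cre group had received an adeno-associated virus carrying Cre recombinase, which removes sequence between loxP sites, and the AAV_Null group, called wild type by the submitters, had received a control virus. Arrays 1 and 2 had the AAV_Cre RNA in Cy5 and arrays 3 and 4 had it in Cy3, with no RNA used more than once. The controls therefore carried the floxed alleles and a virus as well. The labels call the deletion specific to liver but do not name the promoter that drives Cre, the part of Trib1 that is floxed, or whether an RNA came from 1 animal or a pool.

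Systemic iron is set by hepcidin, a peptide hormone that hepatocytes secrete and that makes cells take up and degrade ferroportin, the iron exporter. Hepatocytes raise hepcidin when BMP ligands from sinusoidal endothelial cells act through SMAD proteins, helped by haemojuvelin, HFE and transferrin receptor 2, and when interleukin-6 acts through STAT3. The liver also makes transferrin, the iron carrier of plasma, and holds much of the body's iron in ferritin.

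Hamp encodes hepcidin, and Hamp2 is its mouse paralogue, so the letters that tell their probes apart decide which transcript each probe reads. Both 60-base probes are shown only up to and including a stop codon that they share. Over that stretch, 42 of 53 aligned bases were identical and 11 differed. Each probe held 7 cysteine codons in the frame of the stop codon. Capitals mark the bases that differ in that stretch, and the letters after the stop codon are left out. The sequences are those of the array's probes.
Hamp probe: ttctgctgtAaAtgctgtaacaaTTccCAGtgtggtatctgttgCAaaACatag
Hamp2 probe: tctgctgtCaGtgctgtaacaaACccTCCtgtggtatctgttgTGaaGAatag
The whole Hamp probe lies at chr7:31727490-31727549 and the whole Hamp2 probe at chr7:31707520-31707579, both on the minus strand of mm9. With the whole probes compared, the letters after the stop codon added no further match. The longest run that both share is 14 bases. Among all other probes on the array, with shifts of up to 10 bases, each was the other's closest match, at 42 of 60 bases, so a part of either signal could come from the other transcript and the values of the 2 genes are uncertain to that extent.

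Transferrin had 2 probes, both of which matter below because they gave different ratios. The probe nearer the 3′ end of the transcript lies at chr9:103111207-103111266 and the upstream probe at chr9:103112826-103112885, on the minus strand and 1619 bases apart. The upstream probe is shown here in lower case.
Trf upstream probe: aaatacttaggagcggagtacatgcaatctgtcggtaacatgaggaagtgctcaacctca
Its closest match among other probes shared 31 of 60 bases, and that of the 3′ probe, a probe for Gamt, shared 34 of 60. No exon or untranslated region annotation on mm9 was used here, so the probes' places within exons are not stated.

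The promoters of Hamp and Hamp2 are shown because both genes' ratios lay above 0 on every array and because the same pathways are known to act on the Hamp promoter. These are the 250 bases before each gene's start from RefSeq on GRCm38.p6, both on the minus strand, with chr7:30944030-30944279 for Hamp and chr7:30924182-30924431 for Hamp2. Capitals mark GGCGCC, the core of a BMP-responsive element, and TTCNNNGAA, the half-sites that STAT proteins bind, both searched on either strand.
Hamp promoter: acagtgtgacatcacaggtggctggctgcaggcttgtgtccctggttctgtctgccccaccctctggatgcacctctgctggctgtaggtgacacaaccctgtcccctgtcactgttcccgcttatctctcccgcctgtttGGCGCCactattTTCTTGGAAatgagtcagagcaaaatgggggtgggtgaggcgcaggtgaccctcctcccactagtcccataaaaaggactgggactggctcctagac
Hamp2 promoter: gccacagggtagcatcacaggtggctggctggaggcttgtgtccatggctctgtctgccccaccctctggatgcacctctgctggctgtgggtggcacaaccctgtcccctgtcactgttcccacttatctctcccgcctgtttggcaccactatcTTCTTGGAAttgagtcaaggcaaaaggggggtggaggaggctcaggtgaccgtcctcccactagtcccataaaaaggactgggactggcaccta
The Hamp promoter held GGCGCC 109 bases and TTCNNNGAA 97 bases before the start. The Hamp2 promoter held TTCNNNGAA at 94 bases and no GGCGCC in this window, where the aligned letters differed by G4A, counted from 1 at the first base of GGCGCC. Of 253 aligned columns, 227 were identical (89.7%) and 6 held a gap. GGCGCC was present in 9.59% and TTCNNNGAA in 7.02% of 32851 promoters of the same length, and the motifs do not overlap each other here. These matches describe the letters and say nothing about binding.

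Each array had 43020 spots, of which 53.1% to 58.7% in Cy3 and 51.0% to 55.3% in Cy5 were well above background, and 0 were saturated. Trib1 itself was higher in RNA labelled AAV_Cre by 0.94 ± 0.08 and 1.29 ± 0.11 on the log2 scale (SE, n = 4 arrays) by its 2 RefSeq probes (limma adjusted p = 0.0239 and 0.0243), and its Ensembl probe gave -0.05 (limma adjusted p = 0.618). Whether any of these probes lies in the floxed part is not stated, and a probe outside it checks nothing, so the groups are called as labelled and every direction below rests on the labels. The log2 ratios of pairs of arrays with the same dye orientation correlated across probes at 0.64 (arrays 1 and 2) and 0.48 (arrays 3 and 4), and pairs of opposite orientation at 0.07 to 0.19; probes are not independent replicates. A difference between the orientations holds the dyes and the different RNAs at once, which cannot be told apart.

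Of the 13 probes, 12 passed the filter on dim probes and were tested, and they covered all 10 genes. At a limma adjusted p under 0.05, 1 of the 12 was called (8.33%), a Trf probe that was lower in AAV_Cre, against 2.37% of 20337 probes on the whole array, 316 higher (1.55%) and 167 lower (0.821%). The median member ratio was -0.05 on the log2 scale, with a range of -0.52 to 0.35, beside -0.00 over all tested probes. At an unadjusted p under 0.05 there were 8 of 12 member probes, against 22.2% of all probes. The ratio had the same sign on every array measured for 5 of 12 probes, namely Hamp, Hamp2, Hfe and Hfe2 above 0 and Fth1 below 0, against 23.3% of all probes. All ratios below are log2 AAV_Cre over AAV_Null, with the SE of the fit, and levels are normalised log2 intensities.

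**Figure D1:**
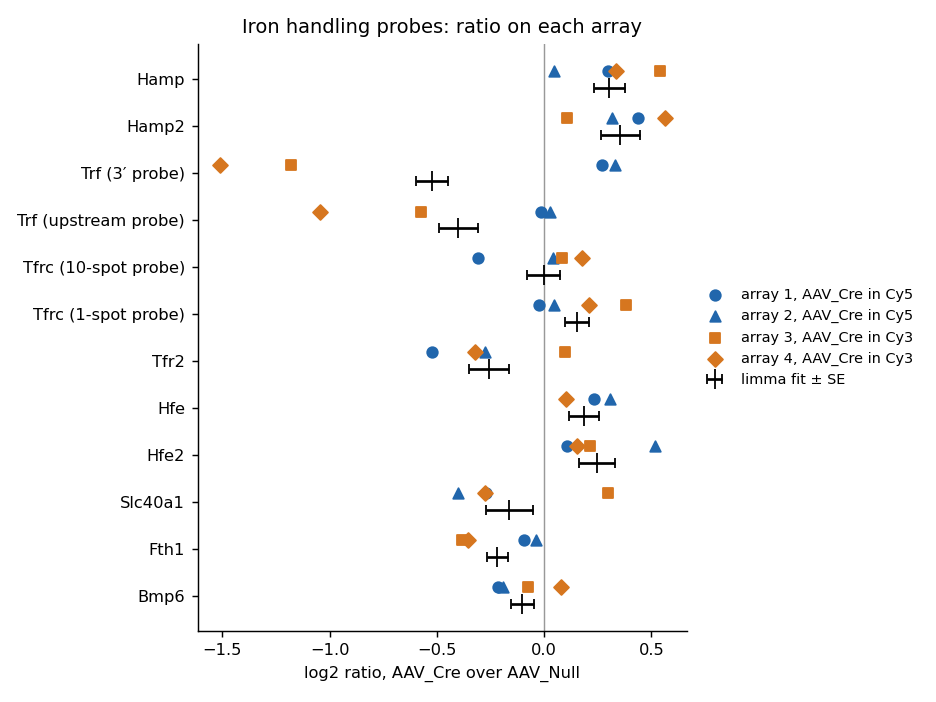
Log2 ratio of AAV_Cre over AAV_Null (x axis) for the 12 tested iron handling probes (y axis). Coloured points are single arrays, blue with AAV_Cre in Cy5 and orange with AAV_Cre in Cy3, and black bars are the limma estimate with its SE; the Trf 3′ probe lies at 0.27 and 0.33 on the blue arrays and at -1.18 and -1.51 on the orange arrays.

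Hepcidin and its paralogue gave ratios above 0 on 4 of 4 arrays, without passing the threshold. Hamp levels were 14.95, 15.92, 15.78 and 15.80 in AAV_Cre on arrays 1 to 4, against 14.66, 15.87, 15.24 and 15.47 in AAV_Null. The groups overlapped, since array 1 was the lowest in both and array 2 the highest in both, while on each array the AAV_Cre RNA was the higher one. The ratios were 0.30, 0.05, 0.54 and 0.33, and the estimate was 0.30 ± 0.07, a 1.23-fold ratio with a 95% interval of 0.12 to 0.49 on the log2 scale (limma adjusted p = 0.111).

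Hamp2 levels were 15.67, 15.97, 15.03 and 16.34 in AAV_Cre, against 15.24, 15.66, 14.92 and 15.77 in AAV_Null, again overlapping. Here array 3 was the lowest in both groups and array 4 the highest in AAV_Cre and in AAV_Null. Its ratios were 0.44, 0.31, 0.10 and 0.56, with an estimate of 0.35 ± 0.09 or 1.28-fold (limma adjusted p = 0.128). The orientations differed by 0.04 for Hamp2 and by -0.26 for Hamp, AAV_Cre in Cy5 minus AAV_Cre in Cy3 (limma adjusted p = 0.904 and 0.320). Array 3 thus had the highest Hamp ratio and the lowest Hamp2 ratio of the 4 arrays, so the paralogues did not follow each other from array to array. With median centring in place of loess both passed the threshold, Hamp at 0.39 and Hamp2 at 0.47 (limma adjusted p = 0.0482 and 0.0475), and Hamp passed it with an intensity trend (0.0425).

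The upstream regulators of hepcidin were mixed in sign, and none of the 4 passed the threshold. Hfe2 encodes haemojuvelin, the BMP co-receptor of hepatocytes, and its levels were 7.75, 8.10, 8.09 and 8.06 in AAV_Cre, against 7.64, 7.59, 7.88 and 7.91 in AAV_Null. The groups overlapped through array 1 of AAV_Cre, and the other 3 AAV_Cre RNAs lay above every AAV_Null RNA. Ratios of 0.11, 0.52, 0.21 and 0.15 gave 0.25 ± 0.08, or 1.19-fold (limma adjusted p = 0.189). It passed the threshold in a fit of the separate channels (limma adjusted p = 0.0454), which called 3059 probes on the whole array.

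Hfe encodes the haemochromatosis protein, which binds transferrin receptor 1 and takes part in iron sensing. Its spot on array 3 was marked as an outlier by the scanner software and was left out, so its values rest on 3 arrays. Levels were 12.80, 12.29 and 12.79 in AAV_Cre on arrays 1, 2 and 4, against 12.57, 11.98 and 12.68 in AAV_Null, and the groups overlapped. The ratios were 0.23, 0.31 and 0.10, with an estimate of 0.19 ± 0.07 (limma adjusted p = 0.244).

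Tfr2, the second transferrin receptor, which hepatocytes use to sense iron-loaded transferrin, had levels of 15.60, 15.72, 16.00 and 15.77 in AAV_Cre, against 16.12, 16.00, 15.91 and 16.09 in AAV_Null. Array 3 was the exception on which AAV_Cre was the higher, and it made the groups overlap. The ratios were -0.52, -0.28, 0.10 and -0.32, and the estimate was -0.26 ± 0.09, or 0.838-fold (limma adjusted p = 0.212), against -0.15 with median centring in place of loess. Like Hfe2, it passed the threshold in the fit of the separate channels (limma adjusted p = 0.0429).

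Bmp6, the BMP ligand that sinusoidal endothelial cells make in response to iron, was dim on these whole liver arrays. Its levels were 6.83, 6.84, 7.16 and 7.22 in AAV_Cre, against 7.04, 7.04, 7.24 and 7.14 in AAV_Null, with the offset of the background correction alone at 5.64, so its ratios are drawn towards 0, as are those of Hfe2 above and of Tfrc below at similar levels. The groups overlapped, and arrays 1 and 2 were the lowest in both. Ratios of -0.22, -0.19, -0.08 and 0.08 gave -0.10 ± 0.05 (limma adjusted p = 0.353). The estimate turned to 0.07 with Agilent's processed ratios. In the authors' deposited values the Bmp6 ratios were 0.36, 0.42, -0.46 and -0.27, so those of arrays 1, 2 and 4 had the opposite sign. The signs of Bmp6 on single arrays thus depended on the processing. The 12 liver sinusoidal endothelial markers, which include Stab2 and Lyve1, had array medians of -0.02, -0.04, -0.31 and -0.30. By limma 0 of 12 were called, while 8 were at an unadjusted p under 0.05, against 22.2% of all probes. The median of their estimates was -0.15, with a range of -0.35 to 0.29. Their summed intensity was 21877 to 24853 in AAV_Cre and 22718 to 33113 in AAV_Null, and their part in the Bmp6 ratio was not tested. Since these are bulk samples, fewer cells of a type and less RNA per cell cannot be told apart.

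**Figure D2:**
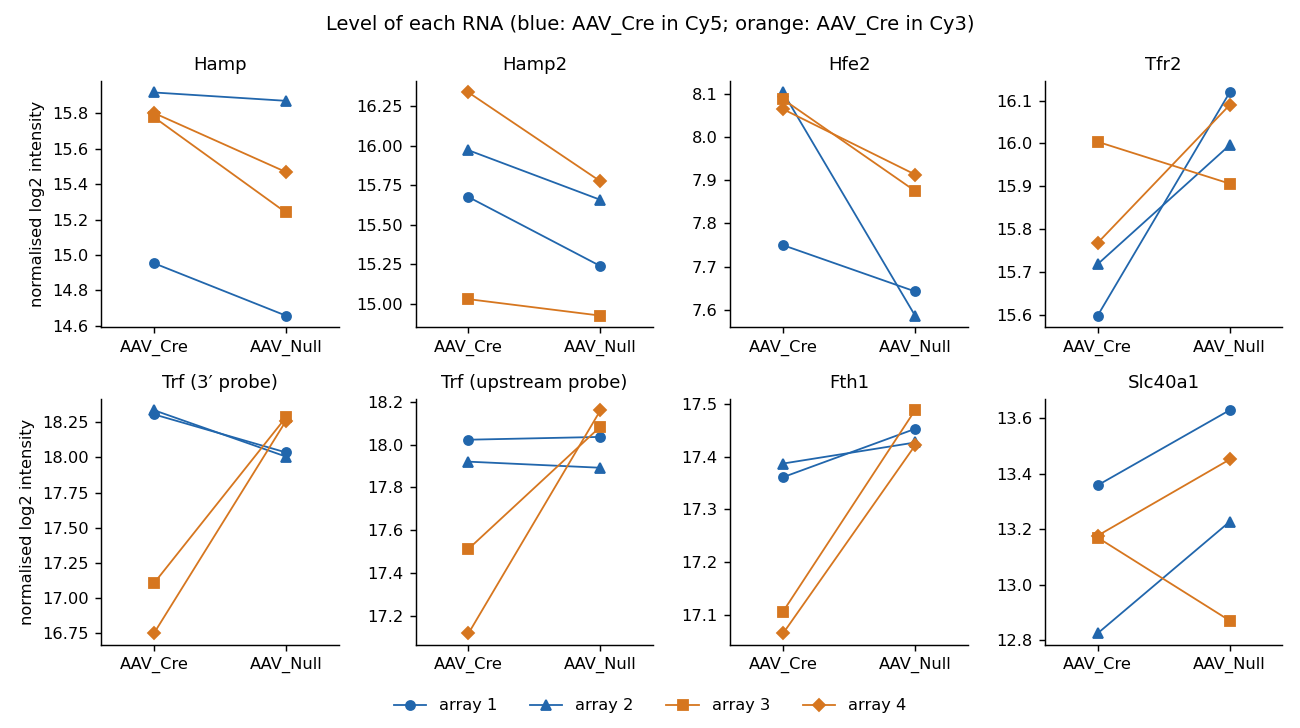
Normalised log2 intensity (y axis, scaled per gene) of 8 iron handling probes in each AAV_Cre RNA (left) and each AAV_Null RNA (right), with a line joining the RNAs of 1 array. Blue lines are arrays with AAV_Cre in Cy5 and orange lines arrays with AAV_Cre in Cy3; Hamp and Hamp2 slope down to AAV_Null on all 4 arrays, while both Trf probes part by colour.

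Trf, which encodes transferrin and is one of the most abundant hepatocyte transcripts, held the one called probe. The 3′ probe had levels of 18.31, 18.34, 17.10 and 16.75 in AAV_Cre, against 18.04, 18.01, 18.29 and 18.26 in AAV_Null. The AAV_Null RNAs lay close together, while the AAV_Cre RNAs of arrays 1 and 2 lay above them and those of arrays 3 and 4 below, so the groups overlapped. The ratios of 0.27, 0.33, -1.18 and -1.51 gave an estimate of -0.52 ± 0.07, or 0.696-fold (limma adjusted p = 0.0483).

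The sign of the Trf 3′ ratio turned with the dye orientation. Its mean was 0.30 on arrays 1 and 2 and -1.35 on arrays 3 and 4, a difference of 1.65 ± 0.15 (limma adjusted p = 0.0311), and Trf was the only member with a called orientation difference, 1 of 12 probes against 1.62% of all probes. A fit with no dye effect gave the same estimate with an adjusted p of 0.569 in limma, and arrays 1 and 2 alone gave 0.30 and arrays 3 and 4 alone -1.35 (limma adjusted p = 0.119 and 0.137). Without any 1 of the 4 arrays the estimate lay between -0.61 and -0.44 and no longer passed the threshold (limma adjusted p of 0.0811 to 0.255). On the whole array 0 probes passed it in either orientation alone, and 0 to 32 with 1 array left out. The loss of the call with fewer arrays is therefore not particular to Trf. With median centring in place of loess it was -0.34 (limma adjusted p = 0.0551). A lower 3′ Trf signal in AAV_Cre was thus measured on arrays 3 and 4 and not on arrays 1 and 2.

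The upstream Trf probe had levels of 18.02, 17.92, 17.51 and 17.12 in AAV_Cre, against 18.04, 17.89, 18.08 and 18.16 in AAV_Null. AAV_Cre was below AAV_Null by the most on arrays 3 and 4, and the groups overlapped through arrays 1 and 2. Its ratios were -0.01, 0.03, -0.57 and -1.04, with an estimate of -0.40 ± 0.09, or 0.758-fold (limma adjusted p = 0.106). With separate channels and with an intensity trend it passed the threshold (limma adjusted p = 0.0108 and 0.0410). Those fits called 3059 and 1441 probes on the whole array. The orientation difference was 0.82 (limma adjusted p = 0.10), smaller than that of the 3′ probe but of the same sign.

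Spots of this brightness shared the split. Among the 46 tested probes at least as bright on average as the dimmer Trf probe (17.84 on the log2 scale), a limit chosen after the Trf values were seen, the orientation difference was above 0 for 46, with a median of 1.03 and a range of 0.42 to 1.84. It was called for 25 of them, and the median over all tested probes was -0.08. The treatment ratio was called for 7 of the 46 (15.2%), against 2.37% of all tested probes. Both Trf probes are themselves among the 46, and the 3′ probe is among the 25 and the 7. The 12 hepatocyte markers, all tested, had array medians of 0.14, 0.05, -0.11 and -0.37. By limma 0 were called, and 5 were at an unadjusted p under 0.05 (22.2% of all probes). The markers' summed intensity was 1298360 to 1923850 in AAV_Cre and 1530290 to 1956530 in AAV_Null. Their orientation difference was above 0 for 8, among them all 4 that were called, and below 0 for the other 4. Alb, the albumin gene, was split like Trf, with ratios of 0.39, 0.27, -0.95 and -1.27 and an orientation difference of 1.44 (limma adjusted p = 0.0363), while Tat, a tyrosine aminotransferase gene, went the other way with -0.28, -0.25, 0.64 and 0.26 and a difference of -0.71 (limma adjusted p = 0.0993). The part of brightness and of hepatocyte RNA in the Trf result was not tested.

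**Figure D3:**
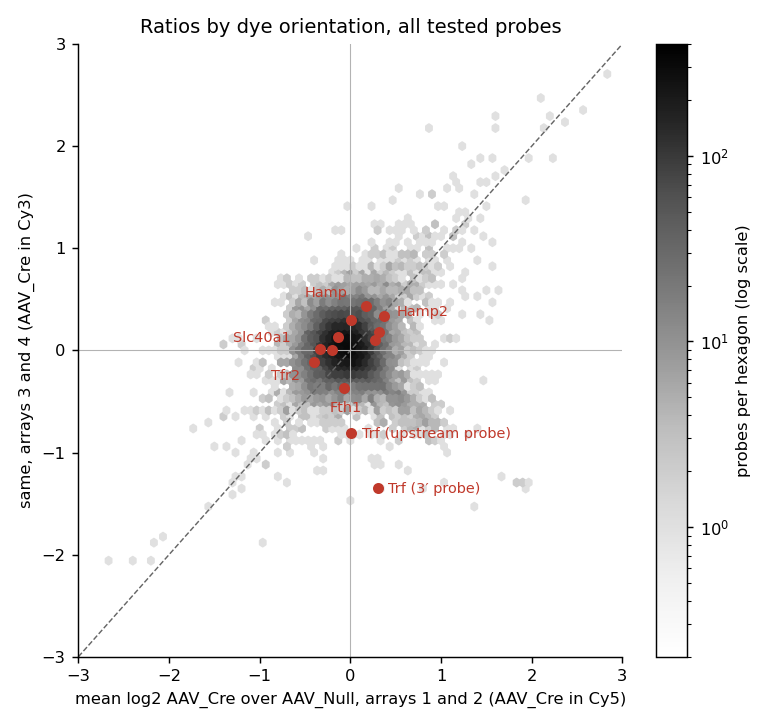
Mean log2 ratio of AAV_Cre over AAV_Null on arrays 1 and 2, with AAV_Cre in Cy5 (x axis), against that on arrays 3 and 4, with AAV_Cre in Cy3 (y axis). Grey hexagons count all 20337 tested probes on a log scale, red points are the 12 iron handling probes, and the dashed line marks equal ratios; the Trf 3′ probe lies at 0.30 and -1.35, far below the line.

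By the distance between their ratios over the 4 arrays, the genes nearest to Trf among 12103 genes were Alb (0.358), Apoa2 (0.476), Tex26 (0.590), Exosc2 (0.667) and Kctd14 (0.760). Apoa2, an apolipoprotein gene, had ratios of 0.31, 0.33, -1.09 and -1.05, so its sign too turned with the orientation. The genes nearest to Hamp were Setd7 (0.0356), Rwdd3 (0.0597), Hipk3 (0.109), B3gat1 (0.110) and U2surp (0.115). These distances describe 4 arrays only.

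Tfrc encodes transferrin receptor 1, through which most cells take up iron-loaded transferrin and whose transcript is stabilised when a cell lacks iron. It had 3 probes, which are given in turn. One of them, printed as 10 spots on each array at chr16:32632255-32632314, had levels of 7.05, 7.61, 7.53 and 7.36 in AAV_Cre, against 7.36, 7.57, 7.45 and 7.18 in AAV_Null. The groups overlapped, with array 1 of AAV_Cre the lowest of all. Its ratios were -0.31, 0.04, 0.08 and 0.17, and the estimate was -0.00 ± 0.08, with a 95% interval of -0.20 to 0.20 (limma adjusted p = 0.988).

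The repeated spots of that probe show the error within an array. With 5 spots left out as marked outliers, the SD between spots was 0.20, 0.06, 0.16 and 0.20 on arrays 1 to 4. On array 1 the spots ran from -0.53 to 0.05 with a median of -0.34. Spots of 1 array share their RNAs and are not replicates.

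The second Tfrc probe, at chr16:32620470-32620529, had levels of 7.43, 7.70, 7.71 and 8.13 in AAV_Cre, against 7.46, 7.66, 7.34 and 7.92 in AAV_Null. It gave ratios of -0.03, 0.05, 0.38 and 0.21 and an estimate of 0.15 ± 0.06 (limma adjusted p = 0.219), with overlapping groups. The third, at chr16:32624877-32625093, was well above background in 0 of 8 channels and was not tested.

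Slc40a1 encodes ferroportin, the exporter that hepcidin removes, and in liver it is known to be abundant in Kupffer cells. Its levels were 13.36, 12.83, 13.17 and 13.18 in AAV_Cre, against 13.63, 13.23, 12.87 and 13.45 in AAV_Null. AAV_Cre was the lower on arrays 1, 2 and 4 and the higher on array 3, and the groups overlapped. The ratios of -0.27, -0.40, 0.30 and -0.27 gave -0.16 ± 0.11, with a 95% interval of -0.45 to 0.12 (limma adjusted p = 0.437).

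The medians of the Kupffer cell and macrophage markers had the same sign as Slc40a1 on each array, at -0.33, -0.24, 0.36 and -0.64 over 11 tested genes. The list held 13 names, of which Adgre1 and Emr1 name the same gene. By limma 0 of these 11 were called and 1, Marco, was at an unadjusted p under 0.05 (22.2% of all probes). Their summed intensity was 33793 to 64657 in AAV_Cre and 46018 to 72346 in AAV_Null. The same order of signs was seen in the array medians of neutrophil markers (-0.22, -0.52, 0.33 and -0.40), B cell markers (-0.19, -0.27, 0.29 and -0.28), acute phase genes (-0.22, -0.01, 0.42 and -0.57) and genes of iron uptake, export and reduction (-0.19, -0.11, 0.20 and -0.34). Genes of hepcidin control by inflammation had it too (-0.17, -0.10, 0.15 and -0.17). Clec4f, a marker of mouse Kupffer cells, had ratios of -0.31, -0.35, 0.49 and -0.64. Cd68, a macrophage marker of the same list, had 0.41, 0.02 and -0.64 on arrays 2, 3 and 4 and no value on array 1. Its sign on array 2 was thus the opposite of that of Slc40a1. The part of these cells in the Slc40a1 ratio was not tested.

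Fth1, the ferritin heavy chain, which oxidises iron for storage, was the only member whose groups did not overlap. Its levels were 17.36, 17.39, 17.11 and 17.06 in AAV_Cre, against 17.45, 17.43, 17.49 and 17.42 in AAV_Null, and 5.62% of all tested probes did not overlap either. Every AAV_Cre RNA was below every AAV_Null RNA, by little on arrays 1 and 2 and by more on arrays 3 and 4. The ratios of -0.09, -0.04, -0.38 and -0.36 gave -0.22 ± 0.05, or 0.860-fold (limma adjusted p = 0.105), and an orientation difference of 0.30 (limma adjusted p = 0.159).

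Fth1 passed the threshold with no background correction, with an intensity trend and in a fit of the separate channels (limma adjusted p = 0.0465, 0.0359 and 0.0128). With median centring in place of loess its estimate shrank to -0.07 (limma adjusted p = 0.729), and arrays 1 and 2 alone also gave -0.07 (limma adjusted p = 0.593). Its partner Ftl1, the ferritin light chain, had ratios of 0.24, 0.24, -0.44 and -0.48, with an estimate of -0.11 ± 0.05 (limma adjusted p = 0.271). The light chain was thus above 0 on the arrays where the heavy chain was nearest to 0.

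The remaining iron genes were grouped into 6 lists, of which 116 genes other than the members were tested. Of these, 1 was higher and 1 lower at a limma adjusted p under 0.05, together 1.72%, against 2.55% of 16081 genes given by 1 probe each. Their median ratio was -0.03, beside -0.00 over all genes. The higher gene was Id1, a target of BMP signalling through SMAD proteins, with ratios of 0.92, 0.82, 0.59 and 0.91 and an estimate of 0.81 ± 0.07, or 1.75-fold (limma adjusted p = 0.0244). Without any 1 of the 4 arrays it stayed between 0.73 and 0.89 and missed the threshold (limma adjusted p of 0.0712 to 0.181). In those fits 0 to 32 probes of the whole array passed, so the lost call is not particular to Id1.

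Id1 stood apart from the rest of the BMP and SMAD list, in which 1 of 27 tested genes rose, 0 fell and 26 were not called. The median was -0.01, and 8 of the 27 were at an unadjusted p under 0.05, against 22.2% of all probes. Acvr2b and Smad9 had the lowest estimates, -0.52 and -0.45 (limma adjusted p = 0.114 and 0.177). Other genes known to answer BMP signalling, named after their values were seen, gave estimates of -0.30 for Id2, 0.15 for Id3, -0.01 for Smad6, 0.19 for Smad7 and -0.01 for Atoh8, with limma adjusted p of 0.120 to 0.966. Tmprss6, the protease that cleaves haemojuvelin, had -0.64, -0.48, 0.17 and 0.26 and an estimate of -0.17 ± 0.06 (limma adjusted p = 0.178). Hamp, whose product is the hormone at the end of this pathway, was at 0.30 on the same arrays.

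The lower gene was Slc39a8, which encodes the metal ion transporter ZIP8. Its ratios were -0.33, -0.24, -0.47 and -0.47, and its estimate was -0.38 ± 0.05 (limma adjusted p = 0.0451). Without any 1 array it lay between -0.40 and -0.36 and was not called (limma adjusted p of 0.114 to 0.246). As for Id1, 0 to 32 probes of the whole array were called in those fits. It was the only one of 10 tested genes of iron uptake, export and reduction that was called. In that list 3 genes were at an unadjusted p under 0.05 (22.2% of all probes), and the median was -0.04. Slc39a14, the related transporter ZIP14 through which hepatocytes take up iron not bound to transferrin, had -0.01, -0.31, 0.45 and -0.38 and an estimate of -0.06 (limma adjusted p = 0.846).

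In the other lists limma called no gene. The counts at an unadjusted p under 0.05 stand beside 22.2% of all probes. For hepcidin control by inflammation 0 of 16 were called (5 at an unadjusted p under 0.05), the median was -0.04 and the smallest p was that of Creb3l3, a liver transcription factor, at -0.26 (limma adjusted p = 0.0828). For storage and sensing, a list that here includes the member Fth1, 0 of 16 were called (5 at an unadjusted p under 0.05, Fth1 among them). The median was -0.05, with Pcbp4 at -0.25 (limma adjusted p = 0.0972). For haem handling 0 of 22 were called (5 at an unadjusted p under 0.05), with a median of -0.02 and Flvcr2, of a family of haem and choline transporters, at -0.60 (limma adjusted p = 0.0549). For mitochondrial iron and iron-sulphur clusters 0 of 26 were called (8 at an unadjusted p under 0.05), with a median of 0.00 and Slc25a37, the mitochondrial iron importer mitoferrin, at 0.32 (limma adjusted p = 0.0856).

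**Figure D4:**
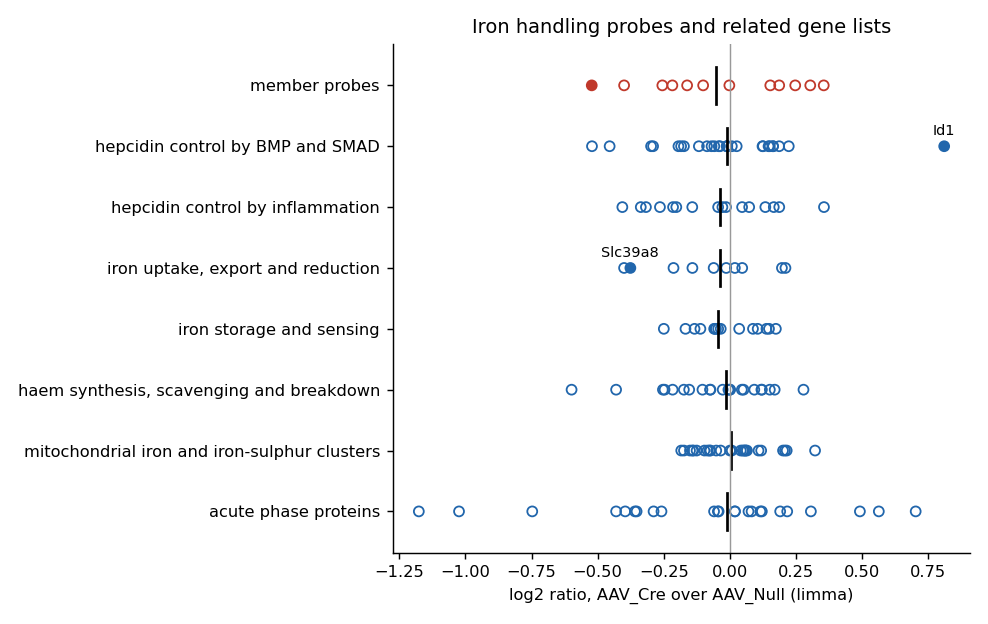
Log2 ratio of AAV_Cre over AAV_Null by limma (x axis) for the member probes in red and for the genes of 7 related lists in blue. Filled points passed an adjusted p of 0.05 and black bars are medians; beside a Trf probe, Id1 at 0.81 and Slc39a8 at -0.38 are the filled points, and all medians lie between -0.05 and 0.00.

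Acute phase proteins were set beside hepcidin, since inflammation raises both. Of 24 tested, 0 were called by limma (6 at an unadjusted p under 0.05, against 22.2% of all probes). The array medians were -0.22, -0.01, 0.42 and -0.57. The smallest p was that of Itih3, a plasma protease inhibitor chain, with ratios of -1.46, -1.32, 0.16 and -1.48 and an estimate of -1.02 ± 0.27 (limma adjusted p = 0.134), which became -1.44 without array 3 (limma adjusted p = 0.0494) and -0.61 without array 4 (limma adjusted p = 0.0885). Saa1, a serum amyloid A gene, had ratios of -0.89, -0.24, 1.18 and -0.29. Array 3 was thus the highest array for this list and for Hamp, and array 4 was the lowest for the list while its Hamp ratio was 0.33. The part of inflammation in the Hamp ratios was not tested.

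Erythroid markers are given because blood stays in whole liver. The list held 11 names, of which Hbb-bt and Hbb-b1 name the same entry. Of the 7 tested markers 0 were called by limma, and 1 was at an unadjusted p under 0.05 (22.2% of all probes). The 7 markers had array medians of -0.52, 0.29, -0.65 and -0.13. Their summed intensity was 7328 to 174372 in AAV_Cre and 12141 to 160672 in AAV_Null. The part of blood cells in the Tfrc ratios, a gene that red cell precursors express highly, was not tested.

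**Figure D5:**
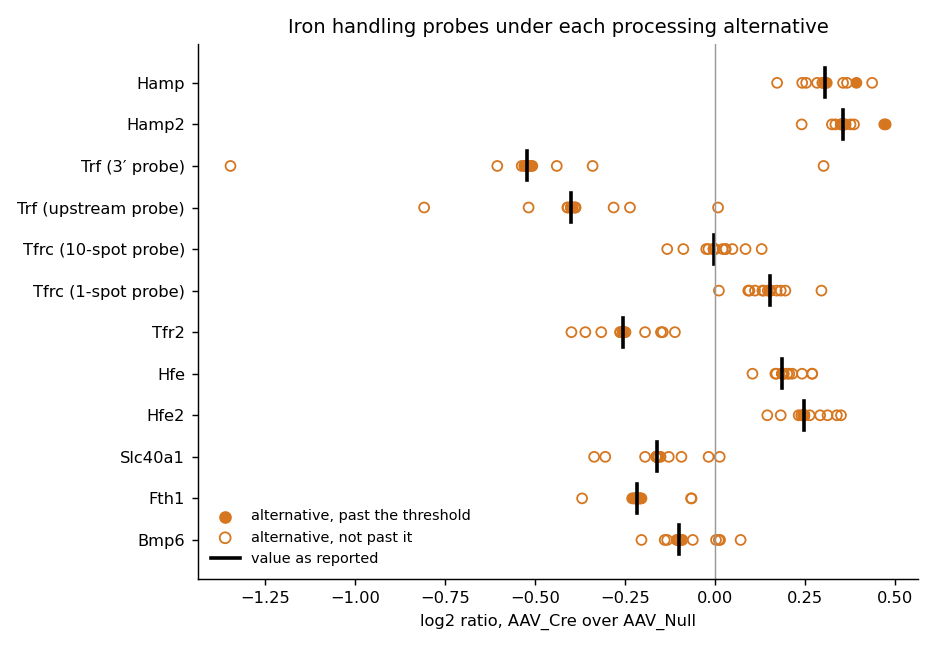
Log2 ratio of AAV_Cre over AAV_Null (x axis) of each iron handling probe under every processing alternative. Filled points passed the threshold, open points did not, and black bars are the values given above; the Trf 3′ probe runs from -1.35 to 0.30, and Hamp stays between 0.17 and 0.44.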

How the data were processed

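Whole-liver RNA of both groups was measured on 2-colour arrays. The spot intensities, local backgrounds, spot marks and log10 ratio of Cy5 over Cy3 are the output of Agilent Feature Extraction (version 11.5.1.1 per the file headers), run by the authors. The authors also deposited log2 values; the submitters' processing notes name limma without its steps. Against the scanner log10 ratios their slopes were 3.34, 3.33, -3.29 and -3.39 on arrays 1 to 4 (the log2 of 10 is 3.32), so they hold log2 AAV_Cre over AAV_Null. Their medians were -0.02, -0.04, 0.04 and 0.04, and how they were normalised is not given in the sources used here. The labels give 2 labelling procedures, and which was used is unsettled.

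Mean intensities were background-corrected with normexp (offset 50) and normalised by loess within arrays, giving control spots no weight (limma 3.58.1, R 4.3.3). Marked outlier spots were dropped, and the spots of 1 probe averaged. A probe was tested if well above background in at least 3 of 4 channels of a group and measured on at least 3 arrays of both orientations. Ratios were fitted with treatment and dye orientation (lmFit, eBayes; 2 residual and 2.66 prior degrees of freedom), adjusted by Benjamini-Hochberg over 20337 probes, with a threshold of 0.05. The spread behind the p-values is that of arrays within 1 orientation, not that between orientations. It holds differences between RNAs and technical error at once, in unknown parts. The 4 arrays limit the precision (median SE 0.06), and an exact two-sided sign permutation could reach no p below 0.125. Levels are single channels after Aquantile scaling between arrays. A list gene is given by its brightest probe. Symbols came from a RefSeq table of GRCm38.p6 (27508 probes by accession, 404 by synonym, 3544 current, 7973 kept as on the array), and probe coordinates are the array's, on mm9. The fit was tested on simulated data. The separate-channel fit used statmod 1.5.0, alignments Biopython 1.88 and figures matplotlib 3.10.9.

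The members, lists and tests were chosen with earlier results of these data known. Named are all members, per list the called genes of largest change (up to 4 per direction) or else that of smallest p, and the 5 genes nearest to Trf and to Hamp; other genes were named after their values were seen. Of the further marker lists, 1 of 8 stellate genes was called (Col3a1, 0.47, against 2.55% of all genes), 4 were at an unadjusted p under 0.05 (22.2% of all probes), and the median was 0.28; medians were -0.15 for neutrophil, -0.01 for T and natural killer, -0.07 for B cell and 0.15 for cholangiocyte markers, with 0 called by limma in each (1, 0, 1 and 1 at an unadjusted p under 0.05).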

Additional observations from a re-analysis of the deposited data

Results flagged for a closer look

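The Trf 3′ probe differed between the orientations by 1.65 on the log2 scale, AAV_Cre in Cy5 minus AAV_Cre in Cy3, by limma's test of that difference. Of 34 sets of 4 array values examined for an array standing apart from the other 3 (member probes, named genes and list medians), 3 had one by Dixon's test, and chance gives about 1.7. Itih3, an acute phase gene, was at 0.16 on array 3. The B cell marker median was 0.29 on array 3. The median of the mitochondrial iron list was 0.086 on array 4. Of the member probes with 4 values, none had an array apart.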

How the results depend on the processing

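In 21 alternatives the Trf 3′ call was kept in 10 and lost in 10, and its sign turned to 0.30 on arrays 1 and 2 alone. The threshold of 0.1 could not lose a call, and the fits on fewer arrays called 0 to 32 probes on the whole array. Such alternatives tell little about a single call, and the counts for Id1 and Slc39a8 below include them too. The count of probes called on the whole array changed by more than 1.5 times in 16 of the 21. Of 396 estimates of single probes or genes compared with the reported ones, 321 kept their direction and their side of the threshold and 13 changed sign. These were that Trf value, 0.0077 for the upstream Trf probe on arrays 1 and 2, and 0.0123 for Slc40a1 on arrays 3 and 4. The 10-spot Tfrc probe turned to 0.0275 with no background correction, 0.0476 with Agilent's ratios, 0.0290 in the deposited values and 0.13 on arrays 3 and 4, and ran from -0.0887 to 0.0840 as each array was left out, with 0.0205 without replicate 3. Bmp6 turned to 0.0096, 0.0703, 0.0133 and 0.0020 under the first 4 of these. Id1 was called in 15 and Slc39a8 in 12.

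Beside 1 member probe, 483 probes and 2 other iron genes called, the counts were 0, 302 and 2 with no dye effect, 5, 3059 and 25 with separate channels, 2, 1645 and 10 with no background correction, 0, 231 and 1 with an offset of 20, 1, 879 and 5 with Agilent's ratios, and 2, 873 and 3 with median centring. They were 1, 1641 and 10 in the deposited values, 0, 302 and 1 with no filter, 4, 1441 and 13 with an intensity trend, 0, 404 and 2 with robust eBayes, 1, 1466 and 9 at a threshold of 0.1, and 0, 0 and 0 for each orientation alone. Leaving out each array gave 0 to 0 member probes, 0 to 32 probes and 0 to 0 other iron genes. The 1 orientation difference became 3 with separate channels, 2 with no background correction, 0 with Agilent's ratios, 6 with median centring, 2 in the deposited values, 2 with an intensity trend and 0 without any 1 array. Apart from fewer arrays, the cause was not tested. The 2 RNAs of an array are paired by it, and the reported ratios use that pairing. By replicate number, no paired analysis was possible because the 2 dye orientations share no numbers.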
